A study of Caenorhabditis elegans with 6 samples.

Results

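Genes for 10 enzymes that add or remove methyl groups on histone H3 were followed through small RNA libraries of Caenorhabditis elegans embryos. They are 4 demethylase genes, spr-5, lsd-1, amx-1 and rbr-2, and 6 methyltransferase genes, set-2, set-17, met-1, mes-4, met-2 and set-25, out of 32238 genes in each of 2 count tables. The gene spr-5 was taken because its sense counts had the fifth smallest p of 7680 genes tested between the genotypes, and the others were taken for their function. The genotype values of all 10 are therefore given as a description, without a test. Embryos carried dot-1.1(knu339) and ced-3(n1286) together, here called the double mutant, or ced-3(n1286) alone, so both groups lacked a wild-type ced-3, the gene for the caspase of programmed cell death. DOT-1.1 is the worm counterpart of DOT1L, which methylates lysine 79 of histone H3. Each genotype had 3 libraries, labelled as biological replicates, made from eggs that bleach freed from synchronised adults kept at 20 °C. Each library pools many embryos and 1 strain stands for each genotype. The labels do not describe the lesion in dot-1.1.

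Methyl groups on histone H3 mark chromatin by the lysine that carries them. Lysine 4 is methylated at active promoters and lysine 36 along transcribed genes, whereas lysine 9 is methylated in silent chromatin. In the worm germ line these marks pass from parent to embryo, and SPR-5 and MET-2 together reset them there. Worms also make small RNAs antisense to messenger RNAs, with RNA-dependent RNA polymerases, and Argonaute proteins use such RNAs to silence genes or to protect them. Messenger RNA itself was not measured. The tables do not give read lengths, so small interfering RNAs and pieces of longer RNAs could not be told apart.

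The libraries held 19206363 to 26409182 sense counts and 4891289 to 6568937 antisense counts. MicroRNA genes took 72.9% to 92.4% of the sense counts, and protein-coding genes 2.42% to 7.04% of the sense and 8.28% to 11.5% of the antisense counts. The 8 genes mir-35 to mir-42, microRNAs of the embryo, made up 31.3% to 36.8% of microRNA counts, while let-7, a microRNA of late larvae and adults, had 288, 321 and 408 counts in ced-3 embryos and 327, 391 and 762 in the double mutant. Counts of lin-4, a microRNA of larvae, were 19, 8 and 24 against 35, 84 and 208. All double mutant libraries lay above all ced-3 libraries in lin-4, and replicate 3 of the double mutant was highest in both microRNAs. Whether a difference in stage has a part in the genotype values below was not tested. Sense counts at dot-1.1 lay between 23 and 75, and they do not check the genotype labels. Counts of the 10 enzyme genes were low, with 3029 sense and 2598 antisense counts over all libraries and genes together. In what follows, 3 values in a row are replicates 1, 2 and 3 of a genotype. Normalised counts are counts per 1000000 of a library size adjusted by TMM, the trimmed mean method of edgeR, within each table. A mean ± SD is over the 3 libraries of a genotype. Standard errors and p-values reflect no more than the variation among these 6 libraries.

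The 10 genes are protein coding and lie on 6 chromosomes. In build WBcel235, spr-5 runs from 13438058 to 13450218 of chromosome I, on the plus strand, with 8 blocks of exon sequence. The small non-coding gene Y40B1B.10 lies within its span on the same strand and shares no exon base with it. For 7 of the 10 genes, spr-5 among them, no annotated exon of another gene lies on the other strand, so their antisense counts have no sense partner in the annotation. The other 3 had short overlaps. These were 6 bases of amx-1 with cnnm-5, 98 bases of rbr-2 with dnc-1, and 85 bases of set-25, of which 64 were shared with unc-64 and 21 with the piRNA gene 21ur-12617. They came to 0.227%, 1.92% and 3.04% of the exon length.

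SPR-5 removes methyl groups from lysine 4 of histone H3 and is a worm counterpart of human LSD1. Sense counts of spr-5 were 51, 19 and 45 in ced-3 embryos and 9, 10 and 5 in the double mutant. Every double mutant library lay below every ced-3 library, before any scaling as well as after it. Normalised sense counts per 1000000 were 1.57 ± 0.269 (SD, n = 3) in ced-3 embryos and 0.388 ± 0.0466 in the double mutant, a log2 fold change of -1.99 ± 0.43 (SE), or 3.97-fold lower. Per 1000000 protein-coding sense counts, spr-5 ran from 35.1 to 44.1 in ced-3 embryos and from 6.98 to 9.03 in the double mutant. These are the values that chose the gene, and among all genes tested 91 (1.18%) had a log2 fold change of -1.5 or lower in the sense table. Among antisense genes 0.973% did, lsd-1 among them and spr-5 not.

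The antisense counts of spr-5 did not show that gap. They were 20, 25 and 26 in ced-3 embryos and 18, 31 and 15 in the double mutant, and the genotypes overlapped. Normalised, they were 4.4 ± 1.24 and 3.8 ± 0.721 (SD, n = 3), a log2 fold change of -0.20 ± 0.37 (SE). The antisense part of all spr-5 counts was 28.2% (95% Wilson interval 19 to 39.5), 56.8% (42.2 to 70.3) and 36.6% (26.4 to 48.2) in ced-3 embryos. In the double mutant it was 66.7% (47.8 to 81.4), 75.6% (60.7 to 86.2) and 75.0% (53.1 to 88.8). Such intervals, here and in the plot by strand, cover counting error only. These shares contain the sense counts that chose spr-5, so their difference between the genotypes is not a separate result. The microRNA part of the sense counts, 77.8%, 92.4% and 86.7% against 72.9%, 79.0% and 89.5%, overlapped between the genotypes. Its part in the spr-5 values was not tested.

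**Figure D1:**
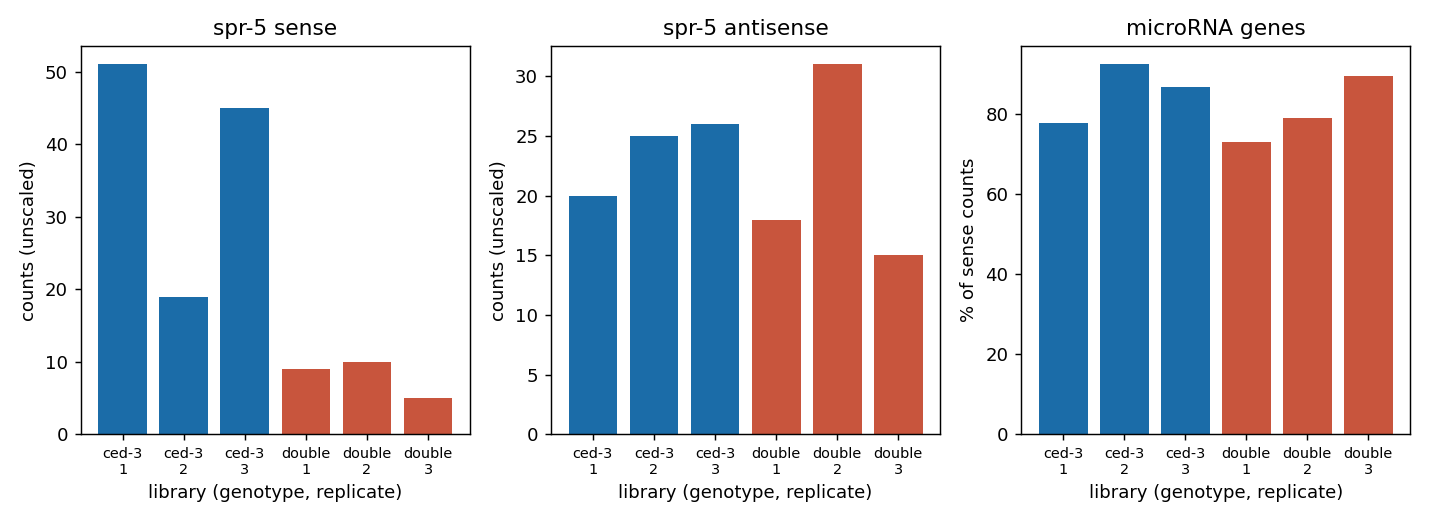
Unscaled counts of spr-5 in the sense table (left) and the antisense table (middle), and the share of sense counts in microRNA genes in % (right), 1 bar per library, with ced-3 in blue and the double mutant in red. Sense counts are 19 to 51 in ced-3 embryos and 5 to 10 in the double mutant, while antisense counts of 20 to 26 and 15 to 31 overlap.

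The other demethylases differed from spr-5 and from one another. LSD-1 is the paralogue of SPR-5, and its sense counts were 31, 6 and 11 in ced-3 embryos and 12, 13 and 9 in the double mutant. The normalised values overlapped, at 0.583 ± 0.213 and 0.567 ± 0.0738 per 1000000 (SD, n = 3), and the log2 fold change was -0.09 ± 0.46 (SE). Antisense counts of lsd-1 (chromosome X, 11948844 to 11951893) were 189, 10 and 113 against 56, 10 and 4. They were high in replicates 1 and 3 of ced-3 and in replicate 1 of the double mutant, with a 29.4-fold range of normalised counts. This was the widest range of the 10 genes in either table. Their log2 fold change of -2.05 ± 1.1 (SE) became -3.75 ± 1.2 without replicate 1 of the double mutant.

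AMX-1 is an amine oxidase related to LSD1. Its sense counts were 39, 20 and 32 in ced-3 embryos and 8, 7 and 25 in the double mutant. Replicates 1 and 2 of the double mutant lay below all ced-3 libraries and replicate 3, one of the libraries richest in microRNA, lay above them once normalised (0.327, 0.309 and 1.77 against 1.04, 1.54 and 1.33 per 1000000). The log2 fold change was -0.76 ± 0.67 (SE), and it was -2.01 ± 0.54 without replicate 3 of the double mutant and -1.84 ± 0.55 without the 2 libraries richest in microRNA. Antisense counts of amx-1 were 3, 5 and 2 against 2, 4 and 4, too few to pass the filter on low counts. RBR-2, a lysine 4 demethylase of the KDM5 family, had antisense counts of 86, 64 and 60 against 65, 69 and 41. Once normalised these had the smallest range of the 10 genes over the libraries, 1.39-fold, at 12.6 ± 1.40 and 10.5 ± 0.81 per 1000000 (SD, n = 3), with a log2 fold change of -0.26 ± 0.28 (SE). Its sense counts were 86, 17 and 29 against 39, 16 and 16, with a log2 fold change of -0.50 ± 0.47.

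Among the methyltransferases, set-2 encodes the catalytic subunit of the worm SET1 complex, which methylates lysine 4. Sense counts of set-2 (chromosome III, 4922427 to 4930204) were 164, 33 and 67 in ced-3 embryos and 696, 241 and 35 in the double mutant. Replicates 1 and 2 of the double mutant were above all ced-3 libraries and replicate 3 was not, so the genotypes overlapped. Normalised sense counts were 3.24 ± 1.00 and 13.9 ± 13.3 per 1000000 (SD, n = 3). The log2 fold change of 2.09 ± 0.78 (SE) was 1.00 ± 0.63 without replicate 1 of the double mutant. Its antisense counts were not high in those libraries, at 79, 82 and 42 against 57, 79 and 48, with a log2 fold change of -0.16 ± 0.36.

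SET-17 also methylates lysine 4, in germ cells. It had 4, 3 and 6 sense counts in ced-3 embryos and 2, 6 and 2 in the double mutant, too few to pass the filter. Antisense counts of set-17 were 10, 24 and 42 against 11, 23 and 19. The lowest library in each genotype was replicate 1, the groups overlapped, and the log2 fold change was -0.54 ± 0.59 (SE).

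The lysine 36 methyltransferases are met-1, which acts during transcription, and mes-4, which keeps the mark on germline genes in the early embryo. Sense counts of met-1 were 159, 44 and 108 in ced-3 embryos and 173, 73 and 41 in the double mutant, or 4.04 ± 0.580 and 4.4 ± 2.32 per 1000000 (SD, n = 3). Those of mes-4 were 33, 8 and 14 against 11, 16 and 6, or 0.693 ± 0.164 and 0.527 ± 0.155 per 1000000. Both genes overlapped between the genotypes, with log2 fold changes of 0.12 ± 0.48 (SE) and -0.40 ± 0.46. On the antisense strand met-1 had 37, 29 and 30 counts against 13, 41 and 29 and a log2 fold change of -0.18 ± 0.43. For mes-4 the antisense counts were 36, 20 and 16 against 32, 25 and 20, with 0.15 ± 0.37.

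The lysine 9 methyltransferases work in turn, met-2 placing the first methyl groups and set-25 the last. Both held more antisense than sense counts in most libraries and were close to even between the genotypes. Antisense counts of met-2 were 70, 107 and 86 in ced-3 embryos and 81, 77 and 64 in the double mutant, with a log2 fold change of -0.26 ± 0.37 (SE). For set-25 they were 79, 58 and 39 against 52, 66 and 53, with 0.00 ± 0.33. Sense counts of met-2 were 97, 58 and 47 against 50, 68 and 47 (-0.10 ± 0.46), and those of set-25 were 40, 24 and 19 against 36, 29 and 14 (0.05 ± 0.45). In both tables and both genes the genotypes overlapped.

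**Figure D2:**
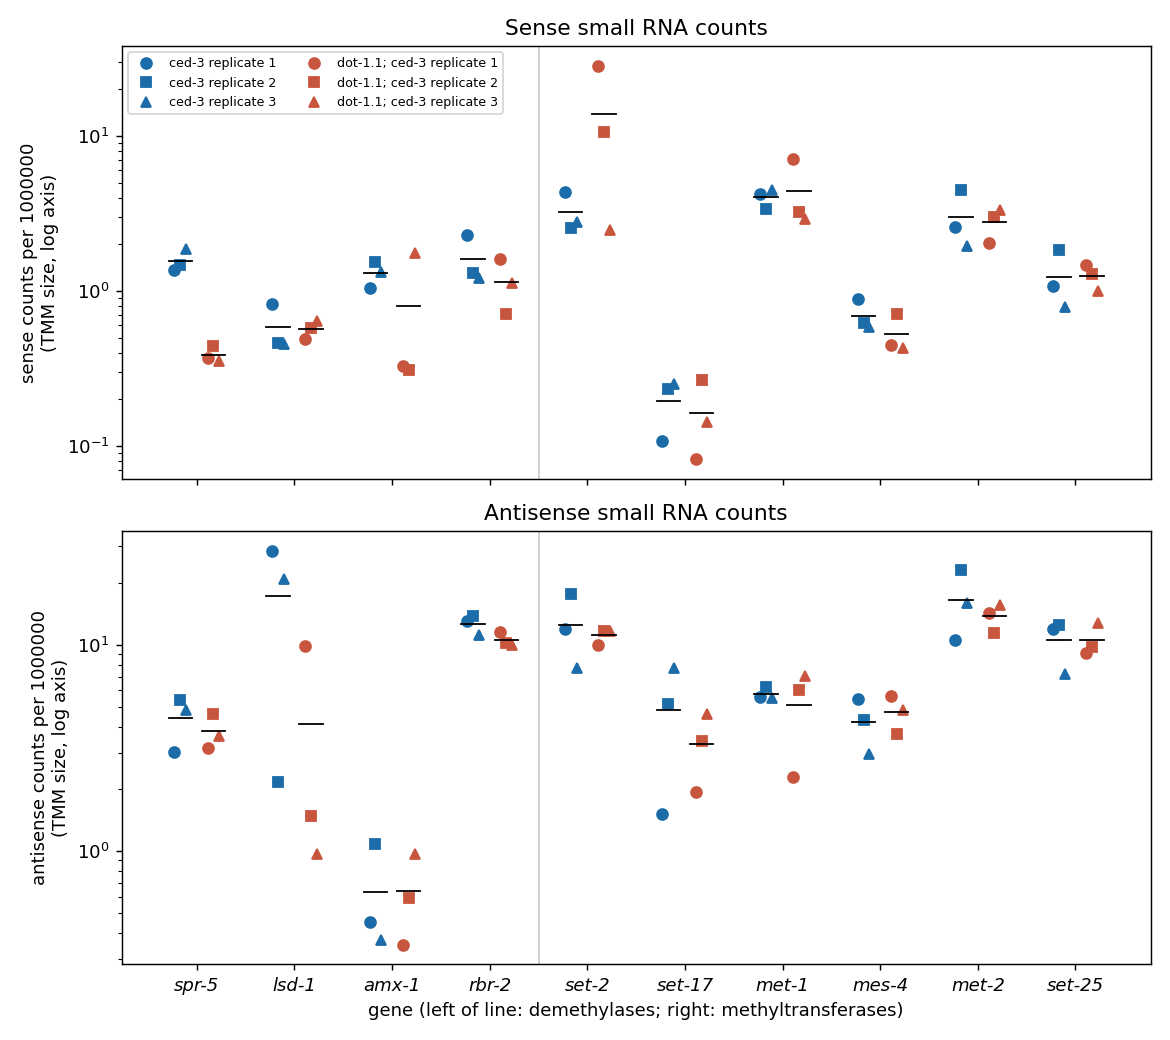
Normalised counts per 1000000 of the 10 genes on a log axis, sense above and antisense below, with 1 point per library (ced-3 blue, double mutant red, shape for replicate number) and a line at each group's mean. For spr-5 alone, in the sense table, the groups do not overlap, at 1.36 to 1.87 in ced-3 embryos and 0.354 to 0.441 in the double mutant.

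Set beside all genes, 9 of the 10 passed the filter on low counts in each table, set-17 being left out of the sense and amx-1 out of the antisense test. With edgeR, 0 of the 9 were called at an adjusted p under 0.05 in either table, against 0% of the 7680 sense and 0% of the 7297 antisense genes tested. Before adjustment, a p under 0.05 was reached in the sense table by 439 genes (5.72%) that were higher in the double mutant and 185 (2.41%) that were lower. In the antisense table these were 211 (2.89%) and 173 (2.37%). DESeq2, run on the same genes, called 0 in the sense table and 1 higher and 7 lower in the antisense table. Normalised groups did not overlap for 1 of the 9 tested genes in the sense table, spr-5, against 5.79% of all genes tested that lay lower and 6.97% that lay higher in the double mutant. In the antisense table this was so for 0 of 9 genes, against 5% of genes lower and 5.26% higher. Sense log2 fold changes were below 0 for all 4 demethylases, from -1.99 to -0.09, although that of lsd-1 was 0.20 without replicate 1 of ced-3. Of the 5 tested methyltransferases, 2 were below 0, so 6 of the 9 genes were, and 7 or 8 of 9 were under the other scalings named next. Of all 7680 sense genes 49.2% were below 0, and with library totals, microRNA counts or protein-coding counts as the scale 60.3% to 64.9% were. The medians over the tested genes of the 10 were -0.10 in the sense and -0.20 in the antisense table, against 0.01 and 0.02 over all genes tested. Since the genes were chosen with these comparisons known, the counts and medians describe the choice.

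**Figure D3:**
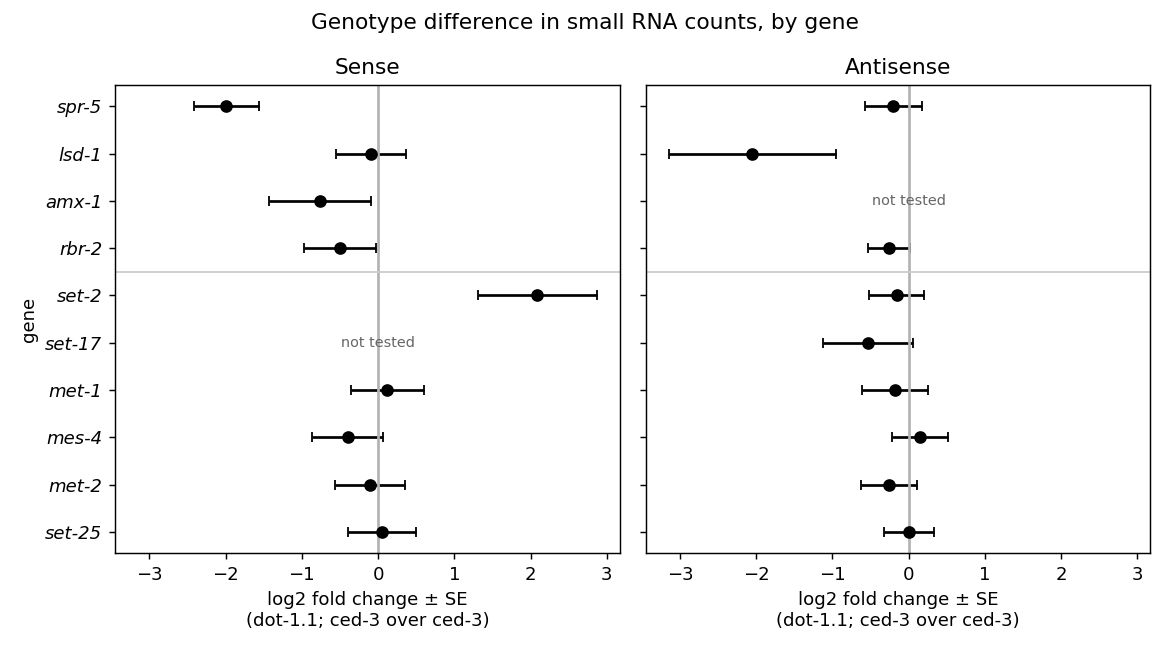
Log2 fold change of the double mutant over ced-3 embryos for each gene, in the sense table (left) and the antisense table (right), with bars of 1 standard error. In the sense table spr-5 stands at -1.99 and set-2 at 2.09, and in the antisense table lsd-1 stands at -2.05 with a standard error of 1.1.

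Which strand of a gene held more counts within a library was not used to choose the genes. For spr-5, however, the sense counts that chose it are part of its strand ratio. The strand was tested with edgeR over 7564 genes, using all 6 libraries and library as a block. Of the 9 enzyme genes tested, 5 had more antisense counts and 1 had more sense counts at an adjusted p under 0.05. Over all genes tested 34.5% had more antisense and 33% more sense counts. Among 3705 protein-coding genes without an exon on the other strand, these figures were 31% and 26.3%. The filter on low counts treated both strands alike, so a gene with enough counts on either strand passed. The gene set-17 passed through its antisense counts alone, so at set-17 that filter favoured an antisense lead. With a filter on the sum of both strands, chosen after seeing the data, all 10 genes were tested, and 5 had more antisense and 2 more sense counts, against 35.6% and 34.2% of 7575 genes. Among 3656 protein-coding genes without an exon on the other strand these were 31.8% and 28.3%. Under that filter set-17 had a log2 ratio of antisense to sense of 2.41 ± 0.44 (SE; edgeR adjusted p = 2.08e-05), with more antisense in 6 of 6 libraries, and amx-1 had -2.53 ± 0.48 (adjusted p = 3.29e-05), with more sense in 6 of 6. With the filter on either strand the ratio was 1.14 ± 0.33 for set-25 (adjusted p = 0.00427, in 6 of 6 libraries) and 1.16 ± 0.36 for rbr-2 (adjusted p = 0.00645, in 5 of 6 libraries, with equal counts in the sixth). Within ced-3 embryos alone both calls were lost (adjusted p = 0.0944 and 0.165). At lsd-1 it was 1.48 ± 0.51 (edgeR adjusted p = 0.0133, in 4 of 6 libraries). That call was lost without replicate 1 or 3 of ced-3 (adjusted p = 0.0723 and 0.100), the libraries where lsd-1 antisense counts were highest, and within the double mutant alone (0.44 ± 0.65, adjusted p = 0.583). At mes-4 it was 0.88 ± 0.38 (edgeR adjusted p = 0.0467, in 6 of 6 libraries). Leaving out replicate 2 of ced-3 or any 1 library of the double mutant ended that call (adjusted p from 0.0652 to 0.133). A fit within either genotype alone did so too (adjusted p = 0.482 and 0.0530). Of 12 alternatives in all, 5 kept the mes-4 call.

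The gene met-1 went the other way, with a log2 ratio of -1.56 ± 0.42 (edgeR adjusted p = 0.00200) and more sense counts in 6 of 6 libraries. For spr-5, met-2 and set-2 the ratios of 0.31 ± 0.43, 0.43 ± 0.34 and -0.85 ± 0.51 did not pass (adjusted p = 0.543, 0.269 and 0.149). The set-2 ratio passed as more sense without replicate 2 of ced-3 (-1.28 ± 0.51, adjusted p = 0.0322). The antisense share of amx-1 ran from 5.88% to 36.4%. Fitted within ced-3 embryos, the spr-5 ratio was -0.60 ± 0.58, and within the double mutant 1.39 ± 0.58. This gap comes from the sense counts that chose the gene and is not a separate result. The ratios compare raw counts of one library. Scaled instead by each table's own TMM size, antisense led more often. The call at met-1 was then lost (0.40 ± 0.36, adjusted p = 0.297), and spr-5 (2.24 ± 0.38, adjusted p = 2.3e-05), met-2 (2.39 ± 0.31, adjusted p = 9.71e-07) and set-2 (1.12 ± 0.48, adjusted p = 0.0347) passed as more antisense.

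**Figure D4:**
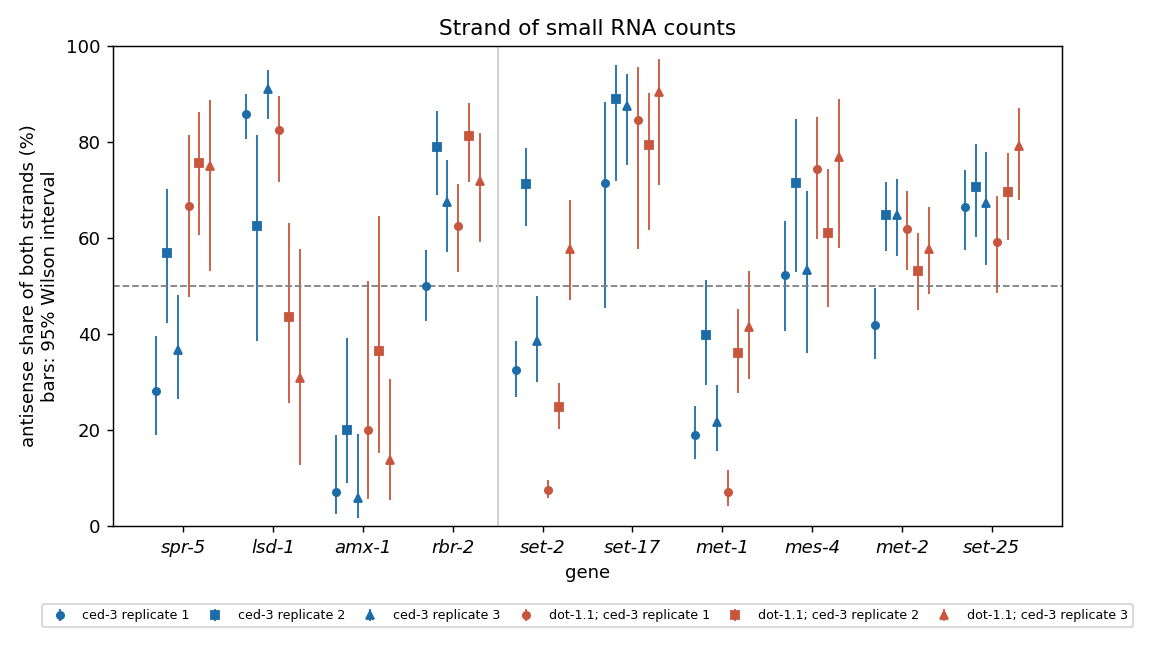
Antisense share of a gene's counts on both strands, in %, for 6 libraries per gene with 95% Wilson intervals as bars, ced-3 in blue and the double mutant in red, and a dashed line at equal counts. The shares of set-17 are 71.4% to 90.5% and those of met-1 6.99% to 41.4%, while those of lsd-1 spread from 30.8% to 91.1%.

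Levels of the genes were compared per kilobase of the length deposited for each gene, as normalised counts per 1000000 over all 6 libraries. In the sense table the order was set-2, met-1, met-2, set-25, amx-1, spr-5, rbr-2, lsd-1, mes-4 and set-17, from 1.56 ± 1.86 (SD, n = 6) down to 0.182 ± 0.0801. Of the 9 pairs of neighbours, 1 differed by more than the larger of their SDs, namely met-2 over set-25. In the antisense table the order was set-17, lsd-1, set-25, met-2, rbr-2, set-2, spr-5, mes-4, met-1 and amx-1, from 4.13 ± 2.34 down to 0.228 ± 0.113. There, 3 of 9 pairs of neighbours differed by more than the larger SD, namely met-2 over rbr-2, mes-4 over met-1, and met-1 over amx-1. Neither end of either order stood apart by more than the larger SD, except amx-1 at the low antisense end. The means pool both genotypes, which for spr-5 sense and lsd-1 antisense differed as given above. Levels in the 2 tables are scaled by different library sizes and were not compared with each other.

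Another 71 genes of histone methylation were listed by function. Of these, 46 passed the filter in the sense table, 0 were called by edgeR in either direction, and 32 of the 46 had a log2 fold change below 0, with a median of -0.27. The filter kept 49 in the antisense table, 0 were called, 19 were below 0, and the median was 0.03. Over all genes tested 49.2% were below 0 in the sense table (median 0.01) and 48.2% in the antisense table (median 0.02). With library totals, microRNA counts or protein-coding counts as the scale, the sense median of all genes tested lay at -0.27 to -0.18, and the median of these genes minus that of all genes was -0.42 to -0.30. The partners of SET-2 in lysine 4 methylation had sense log2 fold changes of -0.49 ± 0.46 (SE) for wdr-5.1, -0.11 ± 0.38 for ash-2 and -0.40 ± 0.40 for cfp-1, and set-16, the second lysine 4 methyltransferase of this kind, had -0.08 ± 0.41. The remaining tested gene of that list, wdr-5.3, which encodes a relative of WDR-5.1, had -1.96 ± 1.2. The corepressor spr-1, whose human counterpart CoREST binds LSD1, had 33, 21 and 27 sense counts against 16, 25 and 11, a log2 fold change of -0.48 ± 0.45. For the related rcor-1 the sense counts were 14, 1 and 3 against 11, 15 and 10, and the normalised groups did not overlap (1.43 ± 0.62).

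Like spr-5, spr-3 and spr-4 were found as suppressors of a presenilin mutant, and both encode zinc finger proteins. Their sense log2 fold changes were -0.17 ± 0.60 (SE) and -0.35 ± 0.44. Among the JmjC demethylases, utx-1, which acts on lysine 27, had -0.59 ± 0.41, jmjd-2, which acts on lysines 9 and 36, had -0.28 ± 0.41, and jmjd-1.2 had -0.49 ± 0.44. Of the 8 tested genes listed as JmjC and other demethylases, 6 lay below 0. The 2 above it were jmjd-3.2 (0.18 ± 0.64) and psr-1 (0.1 ± 0.45). On the antisense strand 9 of 11 tested genes of this list lay above 0. In the lysine 9 pathway lin-65, whose product carries MET-2 into the nucleus, had 38, 6 and 16 sense counts against 7, 10 and 1, and the normalised groups did not overlap (-1.37 ± 0.59). The heterochromatin protein gene hpl-2 had -0.52 ± 0.44, again without overlap of the groups. Of all 46 listed genes tested in the sense table, 4 lay lower and 2 higher in the double mutant without overlap. Over all genes tested these shares were 5.79% and 6.97%. The other listed genes without overlap were sin-3 and lin-13, which lay lower, and set-18, which lay higher. Of the lysine 27 methyltransferase complex, mes-2 had 0.16 ± 0.50, mes-6 had 0.35 ± 0.47 and mes-3 had -1.22 ± 0.64. Antisense counts led at set-32, a lysine 9 methyltransferase gene (log2 ratio of antisense to sense 2.82 ± 0.44, edgeR adjusted p = 2.31e-06 with the filter on the sum of both strands), and sense counts at ash-2 (-1.63 ± 0.39, adjusted p = 5.52e-04). Of 47 such genes tested with that filter, 17 had more antisense and 7 more sense counts, beside the 35.6% and 34.2% of all genes tested.

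**Figure D5:**
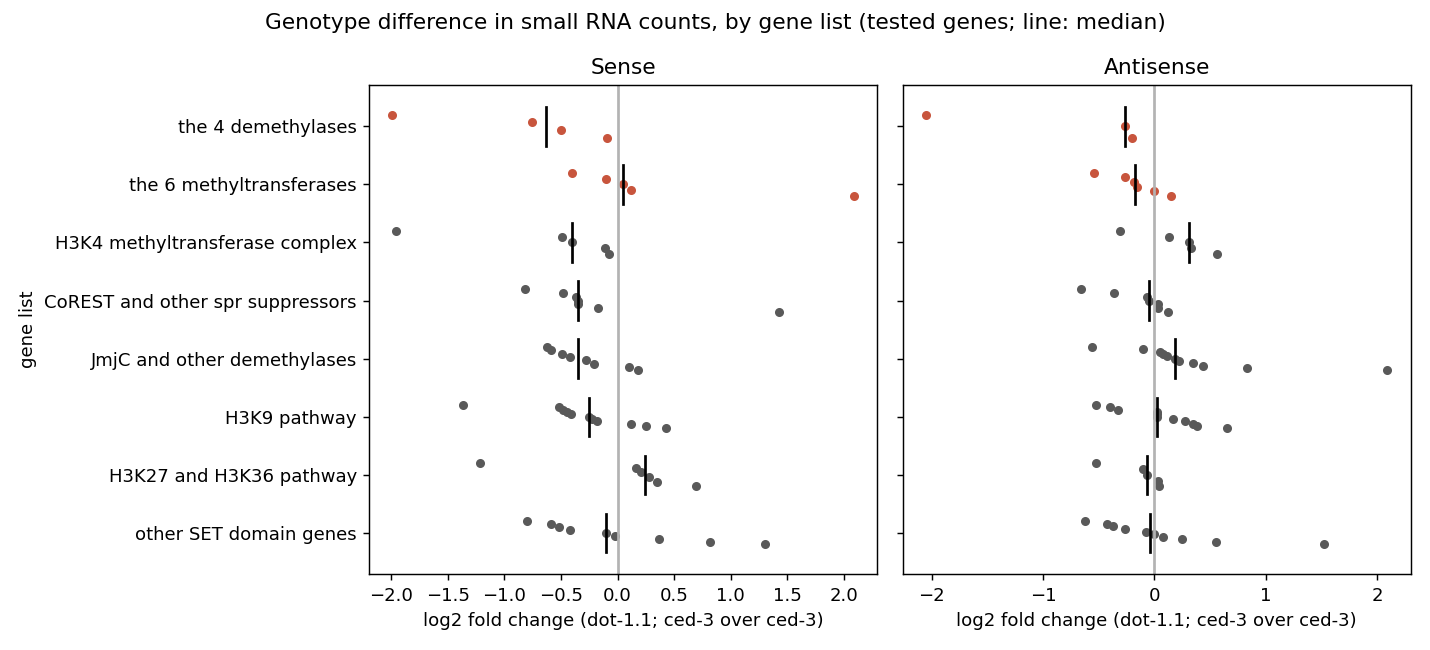
Log2 fold change of the double mutant over ced-3 embryos for each tested gene, grouped by function, in the sense table (left) and the antisense table (right), with the 10 enzyme genes in red, the other listed genes in grey and a line at each group's median. Of the other genes, 32 of 46 lie below 0 in the sense table and 19 of 49 in the antisense table, against 49.2% and 48.2% of all genes tested.

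Some genes of other kinds had sense counts that ran much like those of spr-5 over the 6 libraries. By Pearson correlation of log2 normalised sense counts over 6 libraries, among 7679 other genes, the nearest were twk-31, a potassium channel gene (r = 0.990), F32A11.1 and mam-3 (both 0.977), the histone gene his-2 (0.971) and DH11.2 (0.970). Of the 7679 genes, 51 had r of 0.9 or more. With 6 libraries, unrelated genes can reach such values when so many are compared, and how many would was not tested. The twk-31 sense counts were 37, 12 and 30 in ced-3 embryos and 12, 12 and 7 in the double mutant, and those of DH11.2 were 85, 30 and 71 against 10, 16 and 13. The libraries share their depth and scaling, and the ranking used the sense values that chose spr-5, so this likeness is a description. Exons of F32A11.1 overlap exons on the other strand, and his-2 has near-identical copies, so both are uncertain.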

How the data were processed

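Per the labels' protocols, inserts of 18 to 40 bases were selected and sequenced as single reads of 50 bases. The authors deposited raw counts of reads per gene, as whole numbers, in 2 tables of 6 columns, and a length per gene. The submitters' processing notes name build WBcel235. Not given in the sources used here are the aligner, the counter and the treatment of reads with several matches. One table is named antisense and the other was read as sense. Genotype and replicate number tied each column to a sample. For replicates 2 and 3 the sample titles carry other short names, so those numbers are uncertain. No per-library column was unused (0).

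Tests between genotypes ran separately for the 2 tables in edgeR 4.0.16 (R 4.3.3), using filterByExpr, TMM and a robust quasi-likelihood F test over 6 libraries, and Benjamini-Hochberg adjustment over all genes tested (threshold 0.05). The strand test set both tables side by side, with library as a block and the total of both tables as library size. A standard error is the log2 value divided by the root of F. Strand calls were repeated with a filter on the sum of both strands. DESeq2 1.42.0 and other scalings, filters and sets of libraries were alternatives. The procedures were also run on simulated data, but the outcome is not given here and no statement above rests on it. Classes came from RefSeq, which matched 31418 genes, and exons from Ensembl annotation of the same build. The genes and lists were chosen with earlier results of these data known. Named genes are the 10, listed genes by role, and the 5 most like spr-5.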

Additional observations from a re-analysis of the deposited data

How the results depend on the processing

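Without the low count filter edgeR called 102 sense genes higher and 15 lower, and 89 antisense genes higher and 25 lower. Without the 2 libraries richest in microRNA it called 142 sense genes higher and 9 lower. DESeq2 called 1 antisense gene higher and 7 lower. Leaving out 1 library at a time gave 0 to 6 sense genes higher, the 6 without replicate 3 of the double mutant, 0 sense genes lower and 0 antisense genes in either direction. With the replicate block 0 genes were called in both tables and the sense log2 fold change of spr-5 was -1.97. Same-numbered libraries deviated together for number 1 alone (r = 0.69 sense, 0.64 antisense). Replicate 2 of ced-3 was closest to replicate 3 of the double mutant (0.60 and 0.56). With numbers 2 and 3 uncertain, these correlations cannot show whether the numbers pair samples. The reported fits between genotypes used no pairing. In the strand test, calls without the filter were 5068 for more antisense and 5428 for more sense, and with each table's own TMM size 5977 and 1237. That scaling turned the log2 ratio to 1.12 for set-2 and 0.40 for met-1. Of 107 strand values of the 9 genes first tested under alternatives, 89 kept direction and side of the threshold. The sense value of spr-5 ran from -2.28 to -1.93 over 13 alternatives. Of 234 log2 fold changes under alternatives, 29 had another sign than in the reported fit, and none of these were of spr-5, amx-1, rbr-2, mes-4 or set-2 in the sense table or of lsd-1 or rbr-2 in the antisense table. Low counts limit all of these values. Protein-coding scaling and the filter on the sum of both strands (2696 more antisense, 2588 more sense) were added after seeing the data. The cause of these differences was not tested.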

Other observations

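In a few histone methylation genes, chosen after their values were seen, counts on 1 strand differed widely between libraries of 1 genotype. Antisense counts of lsd-1 were 189, 10 and 113 in ced-3 embryos and 56, 10 and 4 in the double mutant. Sense counts of wdr-5.3, which encodes a relative of the lysine 4 complex subunit WDR-5.1, were 1644, 21 and 1430 against 552, 50 and 31, and those of mes-3 were 141, 17 and 114 against 62, 26 and 7. In all 3, replicates 1 and 3 of ced-3 and replicate 1 of the double mutant held the most counts. The same libraries led at set-16, with sense counts of 208, 50 and 125 against 120, 104 and 61. They also led at jmjd-1.2, with 127, 22 and 83 against 60, 38 and 28. In unscaled counts the lead of these libraries was thus not particular to the 3 genes, but the width of the range differed. Normalised sense counts ran from 3.85 to 5.56 at set-16 and from 1.68 to 3.45 at jmjd-1.2. They ran from 0.496 to 4.74 at mes-3 and from 1.62 to 59.5 at wdr-5.3. Normalised antisense counts of lsd-1 ran from 0.969 to 28.5. The genes lsd-1, wdr-5.3 and mes-3 lie on chromosomes X, V and I.

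A second group was highest in replicates 1 and 2 of the double mutant, or in replicate 1 of each genotype. Sense counts of set-2 were 164, 33 and 67 against 696, 241 and 35. Antisense counts of amx-2, a monoamine oxidase gene, were 22, 3 and 6 against 96, 35 and 1. Those of set-19 were 60, 6 and 25 against 187, 55 and 10, and those of sor-3, a gene of Polycomb-like repression, were 2, 2 and 1 against 32, 12 and 1. None of these genes passed the edgeR threshold where tested. Whether library composition, such as the microRNA share of 72.9% to 92.4%, has a part in these values was not tested.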
